A study of Mus musculus with 12 samples.

Results

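Expression of the genes that set the G1 brake of the cell cycle was examined in microglia, the resident macrophages of the brain. The set held 10 genes, chosen by name. They were the D cyclin genes Ccnd1, Ccnd2 and Ccnd3, the kinase genes Cdk4 and Cdk6, the kinase inhibitor genes Cdkn2b, Cdkn2c, Cdkn1a and Cdkn1b, and Rb1. Each gene was read from the transcript cluster annotated to its symbol alone, and all 10 were found among 14847 genes with such a cluster and 16755 clusters in all. One further cluster, shared by Ccnd3 and a Ccnd3 pseudogene, was left out.

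D cyclins bind CDK4 or CDK6, and the active kinases phosphorylate the retinoblastoma protein, which frees E2F factors to switch on genes of DNA replication. INK4 inhibitors (here Cdkn2b and Cdkn2c) bind CDK4 and CDK6 directly, while CIP/KIP inhibitors (Cdkn1a and Cdkn1b) bind cyclin and kinase together. TGF-beta halts many epithelial cell types in G1 by inducing Cdkn2b and Cdkn1a, and microglia depend on TGF-beta for their adult identity.

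Microglia came from the brains of mice aged 3 weeks and were collected by a FACS gate for Ter119- cells with low CD45 that carried CD11b and CD39. The groups were 3 samples with the genotype Lrrc33+/+ (WT) and 3 samples labelled Lrrc33-/- (KO-labelled). Lrrc33 is the older name of Nrros, which anchors latent TGF-beta on the surface of myeloid cells. RNA of each sample was read on 1 Affymetrix exon array, and the authors' RMA values are log2 intensities at the gene level (1 value per cluster) and at the exon level (1 value per probeset). The labels call the samples biological replicates and do not say how many mice each held, nor how the allele was made or on which strain background. P-values therefore measure the spread between these samples.

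RNA of the targeted gene did not separate the groups. Nrros stood at 9.94, 9.88 and 9.60 (log2 intensity) in WT replicates 1 to 3 and at 9.86, 9.89 and 9.83 in the KO-labelled samples (difference 0.05, SE 0.09, limma adjusted p = 0.759). The 8 exon-level probesets of Nrros had differences of -0.25 to 0.42, of which 5 were positive. Of these probesets 0 passed limma's test over all probesets (lowest adjusted p = 0.31). Whether these probes lie in the altered part of the gene is not known here, so they do not check the labels, and all directions rest on the labels. WT replicate 3 stood apart in sex-linked RNA, with Xist at 7.96 against 12.2 to 12.5 on the other 5 arrays and Eif2s3y at 7.72 against 3.06 to 3.15. Leaving it out changed no gene-level call among the 10 genes (Cdkn2c 1.33, Ccnd2 0.72, Rb1 0.55, Cdkn1b 0.37 and Cdk4 0.37, log2 differences without it). Microglial marker genes were lower in the KO-labelled samples, where 5 of 6 measured passed. The mean level of the list was 9.82 to 9.87 against 11.8 to 11.9 in WT. Sall1 stood at 5.46 to 5.55 on the KO-labelled arrays (difference -5.79) and Tmem119 at 8.49 to 8.65 (difference -3.55). P2ry12 (10.99, 10.84 and 10.92, difference -1.41) and Csf1r (12.9 on every KO-labelled array, difference -0.235) passed as lower too, by less. Of 6 measured markers of border-associated macrophages, 5 were higher and 0 lower (mean level of the list 11.2 to 11.4 against 9.12 to 9.25). All marker counts in this paragraph stand beside 14.4% of all clusters higher and 14% lower. Mean levels of the neutrophil, lymphocyte and NK cell, neuron and oligodendrocyte lists overlapped between the groups, as did the level of Alas2, the 1 erythroid marker measured of 5. The neutrophil list leaned lower and spread widely between arrays. Its median difference was -0.69, and its mean was 6.16 to 7.48 in KO-labelled samples against 7.04 to 8.16 in WT. Of its 8 measured genes 0 passed. The monocyte list overlapped in its mean, with 1 of 5 measured genes higher (F13a1, 2.09) and 3 lower (Plac8, -0.98; Ccr2, -0.83; Vcan, -0.28). The lower count of the monocyte list ranged from 1 to 4 under the alternatives run. It was 1 without WT replicate 2, WT replicate 3 or KO-labelled replicate 1. The mean of the astrocyte list was lower (6.82 to 6.97 against 7.12 to 7.61 in WT), where 1 of 6 genes passed as lower (Slc1a3, -1.50), or 3 without WT replicate 1. The mean of the endothelial and mural list was lower too (6.01 to 6.13 against 6.35 to 6.81), where 2 of 7 passed as lower (Pecam1, -1.43, and Kdr, -0.75), or 4 without WT replicate 3. The part of these shifts in the results below was not tested. In sorted bulk samples, more cells of a type and more RNA per cell cannot be told apart.

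Stretches of 250 bases before annotated gene starts are shown for the members described below that had a RefSeq entry and either rose or form a contrast within the INK4 family (build GRCm38.p6, 5′ to 3′ on the strand of the gene). Of the 10 genes, 7 had an entry, with 10 starts in all. Ccnd1, Ccnd2 and Rb1 had none. Capitals mark the letters searched on both strands, namely GGGCGG (an Sp1 motif), CCAAT (NF-Y), CACGTG (E-box), CAGAC (Smad), TTTGAA (the cell cycle homology region) and the E2F spellings TTTGGCGC, TTTCGCGC, TTTGCCGC and TTTCCCGC. None of these motifs overlapped in the stretches shown.
Cdk4, chr10:127063285-127063534, plus strand: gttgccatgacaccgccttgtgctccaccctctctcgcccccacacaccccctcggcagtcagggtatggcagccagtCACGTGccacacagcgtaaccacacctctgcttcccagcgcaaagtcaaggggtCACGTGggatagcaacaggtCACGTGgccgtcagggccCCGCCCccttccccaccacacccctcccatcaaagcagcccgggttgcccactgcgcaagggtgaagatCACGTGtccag
Cdkn1b, chr6:134920151-134920400, plus strand: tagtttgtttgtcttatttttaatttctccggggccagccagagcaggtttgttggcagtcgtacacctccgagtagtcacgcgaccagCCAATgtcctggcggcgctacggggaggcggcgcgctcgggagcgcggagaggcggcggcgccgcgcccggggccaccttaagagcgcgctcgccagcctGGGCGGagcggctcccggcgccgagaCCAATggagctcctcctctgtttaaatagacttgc
Cdkn2c, upstream start, chr4:109666757-109667006, minus strand: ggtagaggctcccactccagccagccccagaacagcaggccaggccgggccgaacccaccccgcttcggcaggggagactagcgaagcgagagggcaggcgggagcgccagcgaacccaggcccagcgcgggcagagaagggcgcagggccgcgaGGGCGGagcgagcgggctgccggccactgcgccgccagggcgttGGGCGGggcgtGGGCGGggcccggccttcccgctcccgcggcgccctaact
Cdkn2b, chr4:89311033-89311282, minus strand: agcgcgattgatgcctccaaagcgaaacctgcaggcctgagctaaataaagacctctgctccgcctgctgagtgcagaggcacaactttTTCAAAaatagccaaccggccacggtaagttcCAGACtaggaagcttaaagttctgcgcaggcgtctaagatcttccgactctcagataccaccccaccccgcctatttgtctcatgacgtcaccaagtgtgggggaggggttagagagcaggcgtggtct

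The Cdk4 stretch held 4 E-box matches, the motif bound by Myc and its relatives. At least 4 such matches stood in 0.0213% of 32851 stretches of the same length before annotated mouse gene starts, and at least 1 in 6.02%. The Cdkn2c stretch shown held 3 Sp1 matches (at least 3 in 8.47% of all stretches) and no other motif, while the stretch before the second annotated start of Cdkn2c, not shown, held 1 Smad match. The Cdkn1b stretch held 2 NF-Y matches (at least 2 in 10.1%) and 1 Sp1 match (at least 1 in 32.7%). Cdkn2b likewise held 1 Smad match, found in 42.2% of all stretches, and 1 match to the cell cycle homology region, found in 16.0%. E2F letters were in none of the 10 starts of these genes and in 1.86% of all stretches. A match is a run of letters and not a measured binding site.

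Cdkn2c, Ccnd2, Rb1, Cdkn1b and Cdk4 were higher in the KO-labelled samples, and the other 5 genes did not pass the test. The genes that rose thus took in a D cyclin and its kinase as well as inhibitors from both families and the retinoblastoma gene. The count of 5 higher and 0 lower genes compares with 14.4% of all 16755 clusters higher and 14% lower (28.4% in either direction, limma, adjusted p below 0.05 over all clusters). At an unadjusted p under 0.05, 6 members were higher and 1, Cdk6, was lower. Values of the groups did not overlap for 6 genes that were higher (20.4% of all clusters) and for 1 that was lower (21.9% of all clusters). The median difference of the 10 genes was 0.31 (log2), against -0.02 for all clusters. The genes were chosen with results of these arrays known, and the counts describe these genes only.

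**Figure D1:**
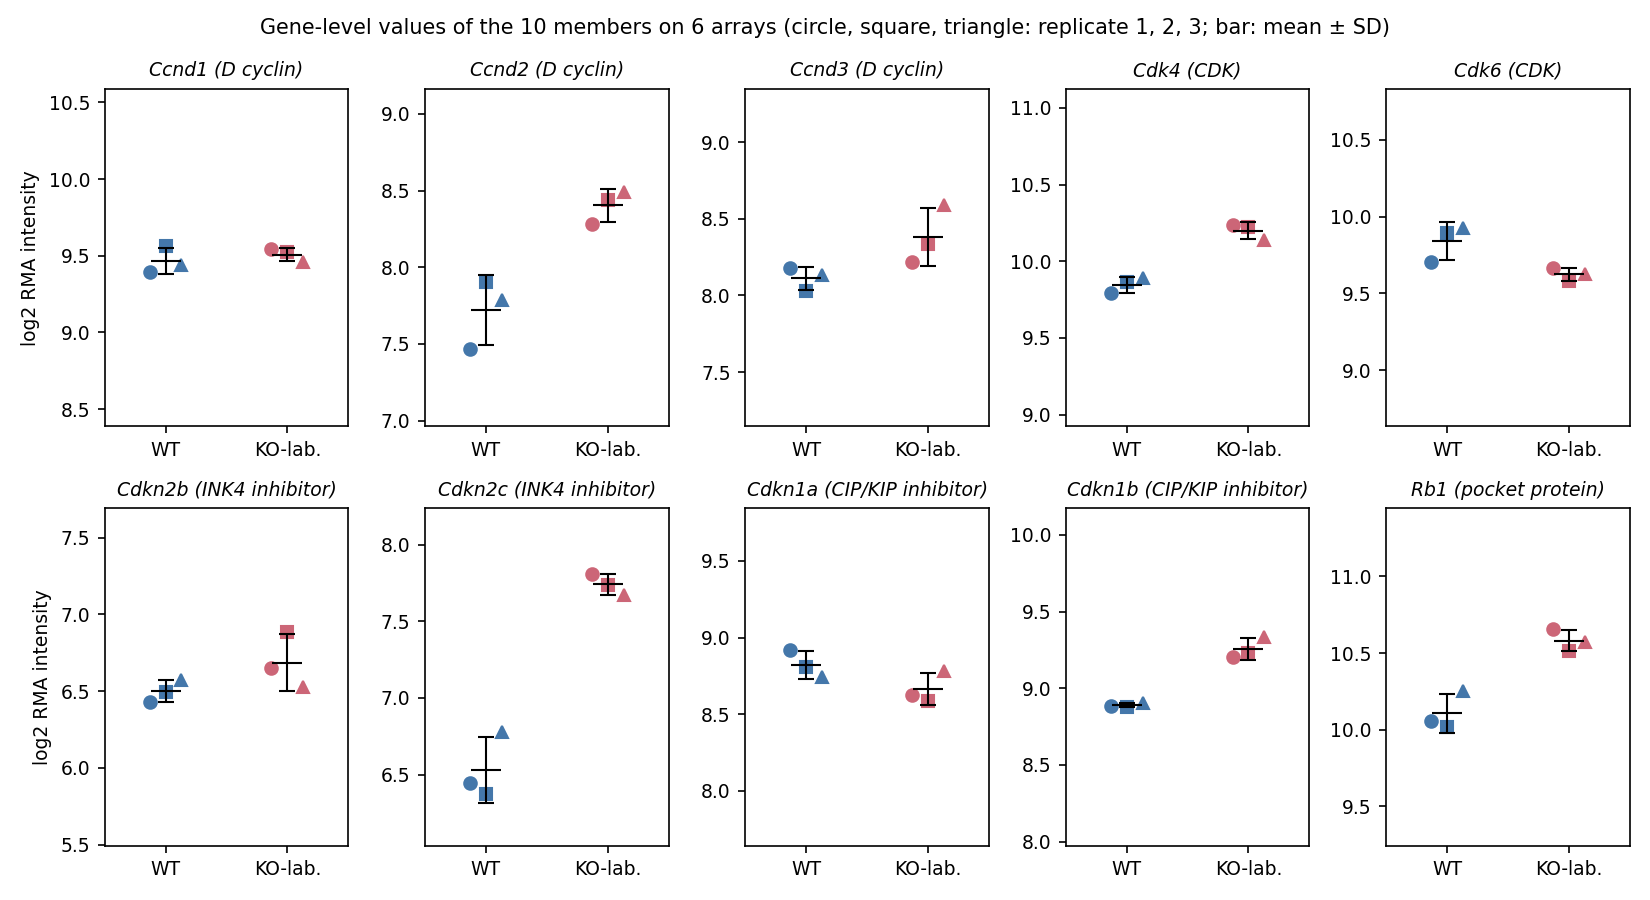
Gene-level log2 RMA intensity (vertical axis, the same span of 2.2 log2 units in each panel) of the 10 genes in 3 WT and 3 KO-labelled samples (horizontal axis). Circles, squares and triangles are replicates 1, 2 and 3 and bars give the mean and SD. The groups lie apart for Cdkn2c, Ccnd2, Rb1, Cdkn1b, Cdk4, Ccnd3 and Cdk6, and mix for Ccnd1, Cdkn2b and Cdkn1a.

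Among the D cyclins, Ccnd2 rose and Ccnd1 had nearly equal means. Ccnd2 stood at 7.47, 7.91 and 7.79 (log2 intensity) in WT replicates 1 to 3 and at 8.28, 8.44 and 8.49 in the KO-labelled samples. Every KO-labelled sample lay above every WT sample, and WT replicate 1 was the lowest of the 6. The difference of 0.68 (SE 0.12) is a 1.61-fold higher level (limma adjusted p = 0.00486). Ccnd1, the D cyclin most often linked to growth factor signals, read 9.40, 9.56 and 9.44 in WT and 9.54, 9.52 and 9.46 in KO-labelled samples. Its groups overlapped, and the 95% interval of the difference ran from -0.11 to 0.19 (difference 0.04, adjusted p = 0.705).

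Ccnd3, the D cyclin prominent in blood cells, read 8.18, 8.03 and 8.13 in WT and 8.22, 8.34 and 8.59 in KO-labelled samples. The groups did not overlap, with KO-labelled replicate 3 highest, but the difference of 0.27 (SE 0.10) missed the threshold (limma adjusted p = 0.0947). It passed without KO-labelled replicate 1 (0.35, adjusted p = 0.0476) and where the gene value was the median of its exon-level probesets (0.38, adjusted p = 0.0329). Without KO-labelled replicate 3 the difference was 0.16 (adjusted p = 0.179). Ccnd2 minus Ccnd1 within an array ran from -1.93 to -1.65 in WT and from -1.26 to -0.97 in KO-labelled samples (change 0.64, SE 0.13). Ccnd2 minus Ccnd3 ran from -0.71 to -0.12 in WT and from -0.10 to 0.10 in KO-labelled samples (change 0.42, SE 0.18). An exact permutation test over samples (two-sided, 3 against 3) gave p = 0.1 for each, which is the smallest this design allows.

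Of the kinase partners, Cdk4 rose, while Cdk6 had lower values that missed the threshold. Cdk4 read 9.79, 9.86 and 9.89 in WT and 10.24, 10.22 and 10.14 in KO-labelled samples, with a gap between the groups wider than the spread within either. It was 1.27-fold higher (difference 0.35, SE 0.06, limma adjusted p = 0.00331). Taken as the median of its exon-level probesets, the gene had a difference of 0.31 that missed the threshold (adjusted p = 0.0544). Cdk6 read 9.70, 9.89 and 9.93 in WT and 9.66, 9.58 and 9.63 in KO-labelled samples. All KO-labelled values lay below the WT values, WT replicate 1 being only just above them, and the difference of -0.22 (SE 0.07) missed the threshold (limma adjusted p = 0.0641). Without WT replicate 1 it was -0.29 and passed (adjusted p = 0.0213). Cdk6 also passed at the same size with trend and robust priors (adjusted p = 0.0447) and without the dimmest clusters (adjusted p = 0.0457). Cdk4 minus Cdk6 within an array ran from -0.04 to 0.09 in WT and from 0.51 to 0.64 in KO-labelled samples (change 0.57, SE 0.06, exact permutation p = 0.1, the smallest this design allows).

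Of the INK4 inhibitors, Cdkn2c gave the largest change of the 10 genes. Cdkn2c encodes a close relative of the Cdkn2b protein that is known for restraining the self-renewal of blood stem cells. It read 6.45, 6.38 and 6.78 in WT and 7.81, 7.74 and 7.67 in KO-labelled samples. The groups lay far apart, and WT replicate 3 was the highest of its group. The level was 2.31-fold higher (difference 1.21, SE 0.11, limma adjusted p = 0.000208), and the difference ran from 1.13 to 1.33 when any 1 sample was left out.

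Cdkn2b, the INK4 gene that TGF-beta induces in epithelial cells, read 6.43, 6.49 and 6.57 in WT and 6.65, 6.89 and 6.53 in KO-labelled samples. The groups overlapped, because KO-labelled replicate 3 lay below WT replicate 3. Its difference was 0.19 (SE 0.10, limma adjusted p = 0.214, not passing), and the 95% interval ran from -0.04 to 0.42. Without KO-labelled replicate 2 the difference was 0.09. It was 0.04 as the median of exon-level probesets, of which the brightest (4723910) read 10.18, 10.20 and 10.09 in WT and 9.75, 9.70 and 9.78 in KO-labelled samples (difference -0.41, limma adjusted p over all probesets 0.175). The Cdkn2b cluster was dimmer than the median of all clusters (6.72), with a mean of 6.50 in WT, and Cdkn2c was about as dim in WT (mean 6.53). RMA makes changes look smaller in this range, but its part in the Cdkn2b difference was not tested. Cdkn2c minus Cdkn2b within an array went from between -0.12 and 0.21 in WT to between 0.85 and 1.16 (change 1.02, SE 0.14, exact permutation p = 0.1, the smallest this design allows).

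Of the CIP/KIP inhibitors, Cdkn1b rose and Cdkn1a did not pass. Cdkn1b, whose protein keeps resting cells out of the cycle and is destroyed when they enter it, read 8.89, 8.88 and 8.91 in WT and 9.20, 9.23 and 9.34 in KO-labelled samples. The WT values were nearly identical and all KO-labelled values lay above them. The level was 1.29-fold higher (difference 0.37, SE 0.05, limma adjusted p = 0.00247). Cdkn1a, an inhibitor induced by p53 and by TGF-beta, read 8.92, 8.81 and 8.74 in WT and 8.62, 8.59 and 8.78 in KO-labelled samples. KO-labelled replicate 3 lay above WT replicate 3, so the groups overlapped, and a difference of -0.16 was found (SE 0.08, 95% interval -0.34 to 0.02), which missed the threshold (limma adjusted p = 0.183). Cdkn1b minus Cdkn1a within an array changed by 0.52 (SE 0.06, exact permutation p = 0.1, the smallest this design allows). These within-array comparisons numbered 5, and after Benjamini-Hochberg adjustment each stood at 0.1.

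Rb1, the target of the D cyclin kinases, rose. It read 10.05, 10.02 and 10.25 in WT and 10.66, 10.52 and 10.57 in KO-labelled samples, with WT replicate 3 the highest of its group and still below all KO-labelled samples. The level was 1.39-fold higher (difference 0.47, SE 0.08, limma adjusted p = 0.00381).

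**Figure D2:**
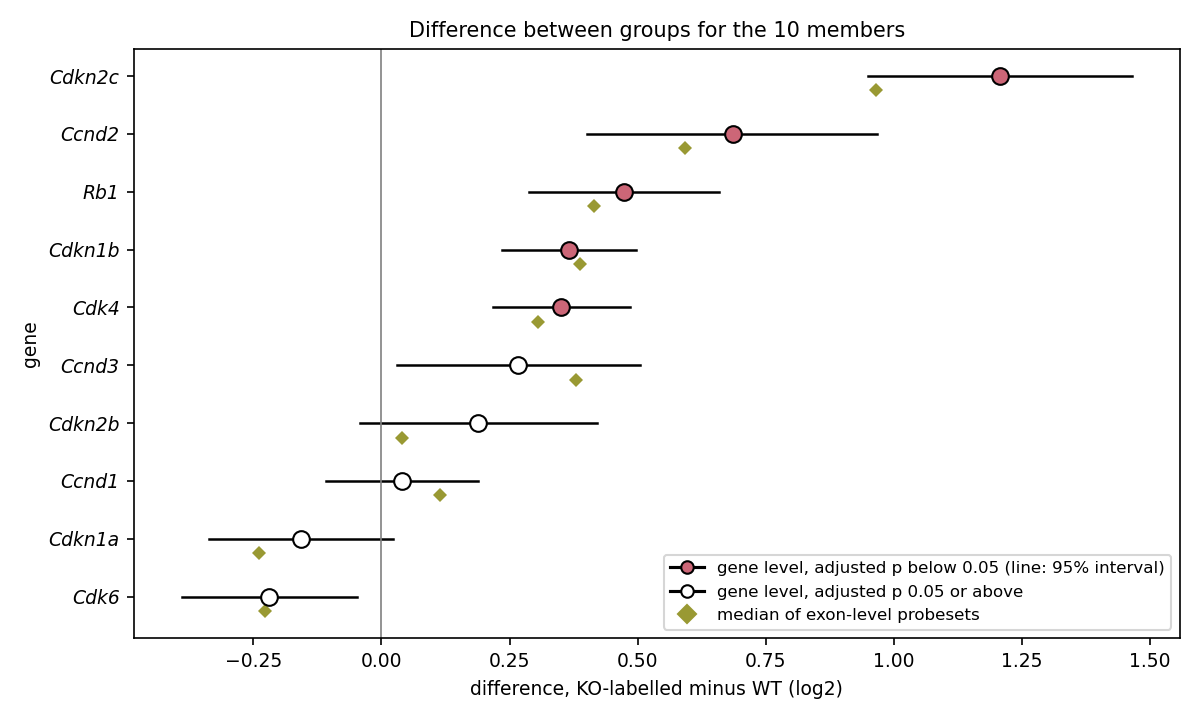
Difference between the groups (horizontal axis, KO-labelled minus WT, log2) for each of the 10 genes (vertical axis, ordered by size), with the 95% interval of the limma fit as a line and the value from the medians of exon-level probesets as a diamond. Filled circles passed the threshold. Cdkn2c lies farthest right at 1.21, and Cdk6 farthest left at -0.22 with an open circle.

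Exon-level probesets re-summarise these arrays, so they are no independent evidence. They showed how alike the differences of a gene's probesets were, without regard to their positions. All 28 probesets of Rb1 were positive (0.13 to 0.91, median 0.47), but 0 passed limma's test over all probesets (lowest adjusted p = 0.057). All 5 of Cdkn1b (0.26 to 0.43), all 12 of Ccnd2 (0.27 to 1.23) and all 10 of Cdkn2c (0.11 to 1.51) were positive too. For Cdk4 10 of 11 were positive, and for Cdk6 23 of 28 were negative. Probesets of a gene share its RNA and are not replicates. Single probesets passed limma's test over all 1236087 probesets in 6 cases for Cdkn2c, 3 for Ccnd2 and 1 each for Ccnd3 and Cdk6, and 4.75% of all probesets passed. The Ccnd3 probeset that passed (4483673) was dim. Its means were 3.96 in WT and 4.95 in KO-labelled samples, both below the median of all probesets (5.82).

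Probesets of 4 of the 10 genes differed from each other in their change (limma's diffSplice, F test per gene), namely Cdkn1a (adjusted p = 0.00169), Cdk6 (adjusted p = 0.00715), Cdkn2c (adjusted p = 0.00745) and Ccnd2 (adjusted p = 0.0318). Of all 16692 genes tested, 31.6% passed, so this share is near the background. In Cdkn1a a probeset just above the median of all probesets in WT (5530406) read 6.18, 5.97 and 5.81 in WT and 6.70, 6.36 and 6.84 in KO-labelled samples, a difference of 0.65, while the other 4 above that median had differences of -0.31 to -0.08. That probeset alone did not pass limma's test over all probesets (adjusted p = 0.120). In Cdk6 a single probeset (5196575) went from 6.80, 6.83 and 6.84 to 5.91, 5.62 and 6.17, a difference of -0.93 against a median of -0.21 over its 28 probesets. In Cdkn2c probeset 4324371 had a difference of 0.24 against a median of 1.11 over the 9 probesets above the median of all probesets. The Cdkn1a call held with each sample left out (adjusted p at most 0.0255). The Ccnd2 call was lost without any 1 sample except WT replicate 3. It was also lost with no filter on dim probesets (adjusted p = 0.0522) and with only probesets above the median in both groups (adjusted p = 0.197). The Cdk6 call was lost without WT replicate 1, WT replicate 2 or KO-labelled replicate 2, and the Cdkn2c call without WT replicate 2 or KO-labelled replicate 1. Rb1 passed as well without WT replicate 3 (adjusted p = 0.0209), and Cdk4 without KO-labelled replicate 2 (adjusted p = 0.0143). The count of 4 genes accordingly fell to 1 without WT replicate 2 and to 2 without WT replicate 1 or KO-labelled replicate 1. Positions of the probesets in the transcripts were not used here.

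**Figure D3:**
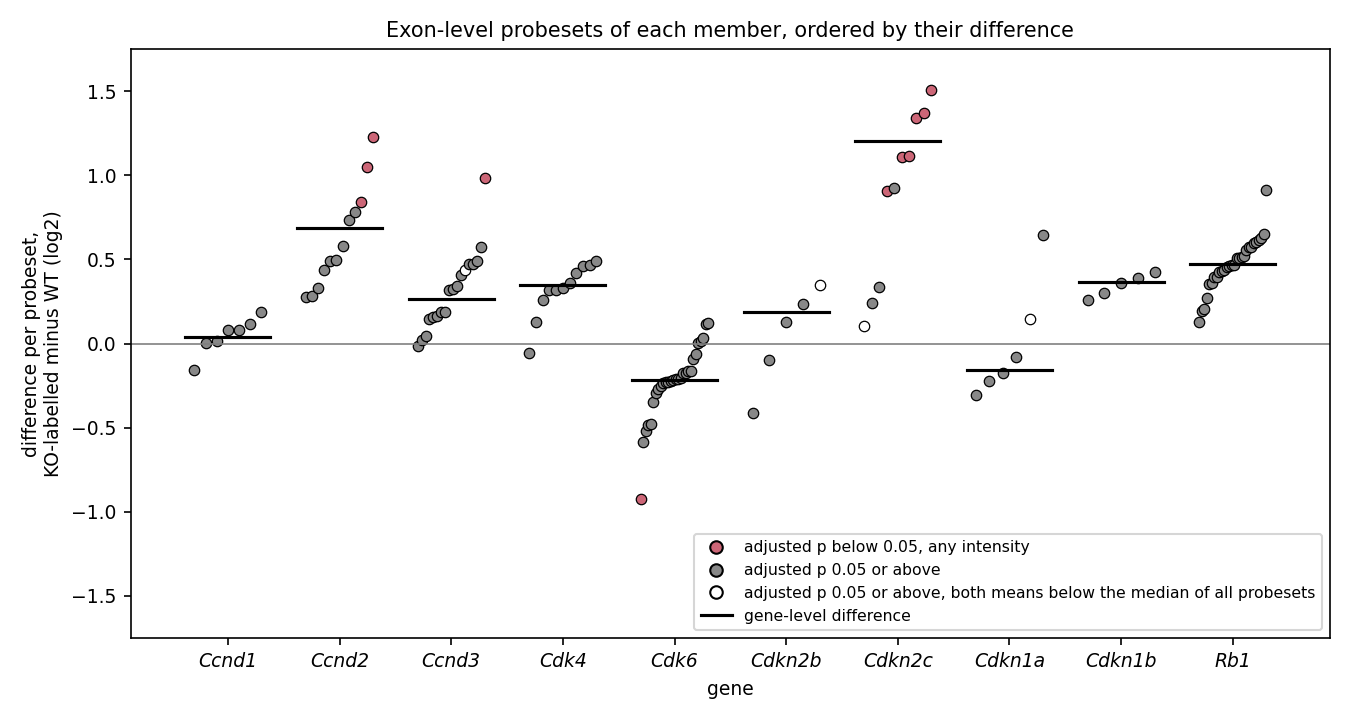
Difference of each exon-level probeset (vertical axis, KO-labelled minus WT, log2) for the 10 genes (horizontal axis), ordered by size within a gene, with the gene-level difference as a line. Rb1, Cdkn1b, Ccnd2 and Cdkn2c lie wholly above 0, Cdk6 has 1 probeset at -0.93, and Cdkn1a has 1 at 0.65 above a mostly negative set.

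Genes that act beside the 10 members were taken from lists chosen for this pathway with results of these arrays known. Their counts stand beside 14.4% of all clusters higher and 14% lower, and no test compared the lists. Of 8 measured genes of cyclin E, CDK2 and CDK activation, 4 were higher and 1 lower (median 0.29). Ccne2, a cyclin that works after the D cyclins, was 2.44-fold higher (difference 1.29, SE 0.08, limma adjusted p = 2.91e-05), and Ccne1 was higher by 0.40. The phosphatase genes Cdc25b (0.66) and Cdc25c (0.45), whose proteins activate CDKs, were higher too, while Cdc25a, named after its values were seen, was lower (-0.35), a call that was lost with medians of exon-level probesets. The 4 higher genes were dim, with means below the median of all clusters (6.72) in both groups. Ccne2 was the dimmest of them in WT, with a mean of 4.18 there and 5.47 in KO-labelled samples. Cdk2 itself did not pass (-0.03, adjusted p = 0.702), nor did Ccnh, part of the CDK-activating kinase (0.08, adjusted p = 0.602).

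Of 12 measured pocket protein, E2F and DP genes, 4 were higher and 1 lower (median 0.14). The higher count was 3 without WT replicate 1, WT replicate 2, KO-labelled replicate 1 or KO-labelled replicate 3. E2f1, an activator of replication genes, read 6.79, 6.56 and 6.69 in WT and 7.76, 7.89 and 7.77 in KO-labelled samples (difference 1.13, SE 0.08, limma adjusted p = 4.81e-05). The atypical repressors E2f8 (1.22) and E2f7 (0.52) rose as well. Rbl2, a relative of Rb1 and named after its values were seen, was higher (0.26, adjusted p = 0.0295), and Rbl1 did not pass (0.21, adjusted p = 0.0825), nor did the repressor E2f4 (-0.15, adjusted p = 0.080). The lower gene was Lin54 (-0.35), a subunit of the complex that assembles with pocket proteins, and it missed the threshold without WT replicate 1, KO-labelled replicate 2 or KO-labelled replicate 3.

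Proliferation genes under E2F moved together, with 17 of 18 measured genes higher and 0 lower (median 0.97, 16 to 17 higher under the alternatives run). At an unadjusted p under 0.05, 0 of them were lower. Mki67, the marker of dividing cells, was higher by 2.45 and Top2a, a topoisomerase of replicating DNA, by 2.31. Bub1, a mitotic checkpoint kinase, was higher by 1.57, the replication helicase gene Mcm6, named after its values were seen, by 1.40, and the cyclin gene Ccna2 by 1.92. Mcm3 did not pass (0.13, adjusted p = 0.403). The mean level of this list was 7.44 to 7.60 in KO-labelled samples against 6.38 to 6.49 in WT. Cdkn2c, Ccnd2, Rb1, Cdkn1b and Cdk4 were higher in the same arrays, and the part of dividing cells in their change was not tested.

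**Figure D4:**
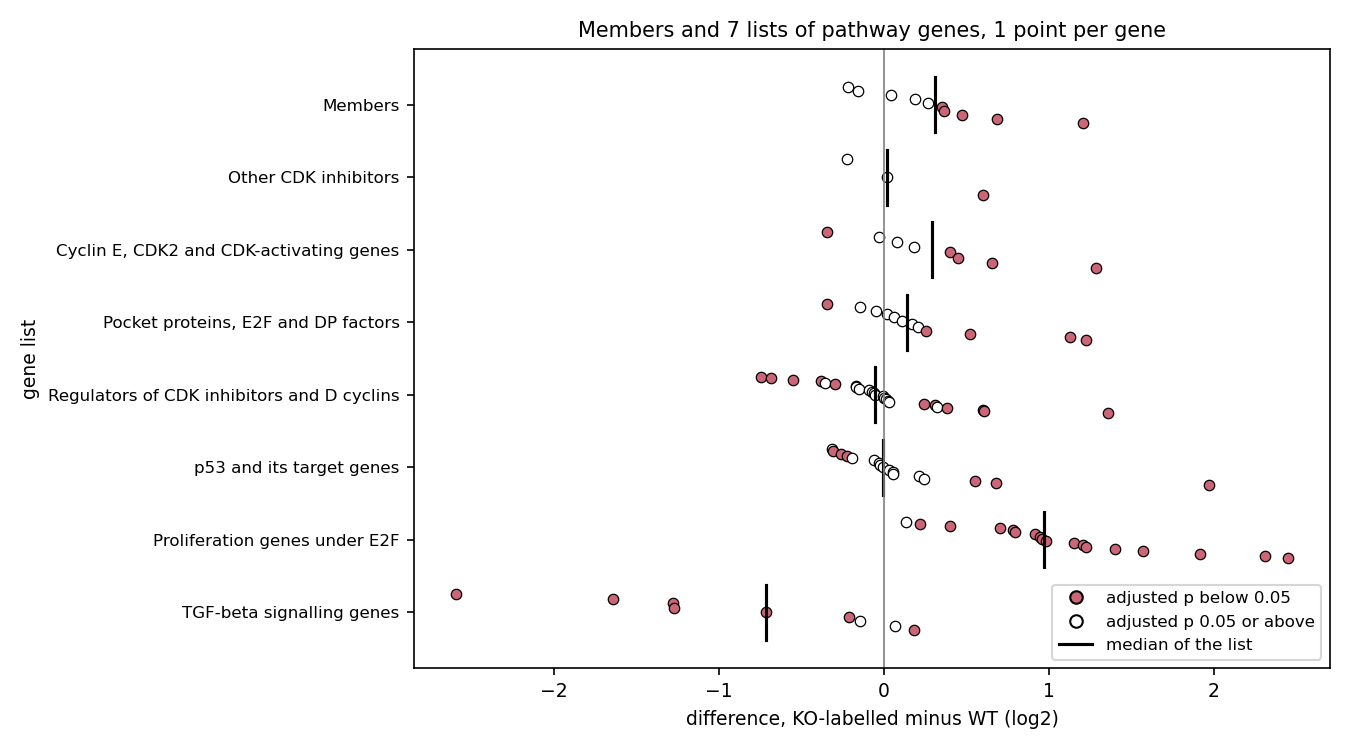
Difference between the groups (horizontal axis, KO-labelled minus WT, log2) for the 10 members and for each measured gene of 7 pathway lists (vertical axis), with list medians as lines. Filled points passed the threshold. Proliferation genes lie at 0.13 to 2.45, and TGF-beta signalling genes lie mostly left of 0.

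Of 25 known regulators of these inhibitors and cyclins, 6 were higher, 5 were lower and 14 did not pass (median -0.06), beside 14.4% and 14% of all clusters. Skp2, whose protein marks the Cdkn1b protein for destruction, was 2.56-fold higher (difference 1.36, SE 0.08, limma adjusted p = 2.69e-05), while Cul1, the scaffold of the same ubiquitin ligase, fell by 0.69 (SE 0.06, adjusted p = 0.000187). Klf6, a zinc finger factor known to induce Cdkn1a, was higher by 0.60. Ezh2, which silences the INK4 locus, rose by 0.60, and Ambra1, which directs D cyclins to degradation, by 0.24, and both were named after their values were seen. Id2, an inhibitor of differentiation factors, fell by 0.74. Myc, which represses Cdkn2b and Cdkn1a through Zbtb17, did not pass (0.32, adjusted p = 0.0777), nor did Gsk3b, a kinase of D cyclins (-0.07, adjusted p = 0.441), and Zbtb17, named after its values were seen, stood at 0.00.

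Of the other CDK inhibitors, Cdkn3, a phosphatase of CDKs, was higher (0.60, SE 0.13, adjusted p = 0.0142), but missed the threshold without KO-labelled replicate 2 and with medians of exon-level probesets. Cdkn2a, the neighbour of Cdkn2b, did not pass (0.02, adjusted p = 0.894), nor did Cdkn1c (-0.23, adjusted p = 0.0945). Without KO-labelled replicate 2, 1 gene of this list, Cdkn1c, passed as lower. Targets of p53, the main inducer of Cdkn1a, had 3 of 17 measured genes higher and 3 lower (median -0.00), shares near those over all clusters. Plk2 was 3.92-fold higher (difference 1.97, SE 0.08, limma adjusted p = 5.37e-06), Sesn1 was higher by 0.68 and Fas by 0.55. Bbc3, a death effector, was lower (-0.31), while Btg2 (0.05) and Mdm4 (-0.03) did not pass. The lower count was 0 without KO-labelled replicate 1. It was 1 without WT replicate 2, KO-labelled replicate 2 or KO-labelled replicate 3, with the replicate block and with medians of exon-level probesets.

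TGF-beta signalling genes were mostly lower, with 6 of 9 lower and 1 higher (median -0.72). Skil, a corepressor that TGF-beta induces as feedback, fell by 1.64 (SE 0.11, limma adjusted p = 4.14e-05), and the feedback inhibitor Smad7 fell by 2.60. Smad3, which carries the signal to the nucleus, fell by 1.28, and the receptor gene Tgfbr1 fell by 1.27. Tgfb1 itself (0.07, adjusted p = 0.618) and Smad2 (-0.15, adjusted p = 0.159) did not pass. The higher gene was Tgfbr2 (0.18), which lost its call with any 1 sample left out and was named with its value known. Cdkn2b and Cdkn1a, which TGF-beta induces in many epithelial cell types, had differences of 0.19 and -0.16 that did not pass. Their intervals given above ran from -0.04 to 0.42 and from -0.34 to 0.02. Cdkn2c and Cdkn1b were higher by 1.21 and 0.37. The part of TGF-beta signalling in the differences of these inhibitors was not tested.

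The genes whose values followed Cdkn2c most closely over the 6 arrays were Alms1, Zc3h12d and B3galnt1. Likeness was measured as the root mean square distance of values centred on each gene's mean, which was 0.07, 0.07 and 0.08 log2 units. Pearson's r with Cdkn2c was 0.991 to 0.997 over 6 points that share arrays and the contrast between the groups. No gene of the 10 was called lower, so no counterpart was looked for.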

How the data were processed

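The authors deposited log2 intensities made with RMA, per the submitters' processing notes, at a gene level and an exon level. Each level has 6 of the 12 labelled columns. RMA corrects background, normalizes arrays to 1 distribution and summarises probes, which shrinks changes of dim genes. For the exon level the submitters' processing notes also name oligo and limma. Their versions and the array's genome build were not given in the sources used here. Probe positions were left out for that reason. All columns were mapped to samples. Deviations from group means over 14690 genes tied each gene-level column to its own exon-level column (r = 0.514 to 0.586, other columns at most 0.0484).

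Symbols came from the platform annotation, updated through a RefSeq table (GRCm38.p6), and only features with 1 symbol were named (14996 clusters, 321091 probesets). A gene with several clusters was read from the brightest. Differences are KO-labelled minus WT, tested two-sided and without covariates by lmFit and eBayes of limma 3.58.1 (R 4.3.3) over all clusters or probesets. P-values were adjusted by Benjamini-Hochberg and called at 0.05. Exon usage was tested with diffSplice on 231529 probesets that reached the overall probeset median in at least 1 group, for genes with 3 or more of them. Errors are moderated standard errors, except in the within-array comparisons, where they come from the group variances. The limma fit was tested on simulated data. Replicate numbers showed no sign of pairing the samples (correlation of deviations -0.029, -0.007 and 0.039), but a weak pairing could go unseen. Precision is limited by how few arrays there are.

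The members and lists were chosen with earlier results of these data known. Named from each list were up to 4 genes past the threshold with the largest change and up to 2 bright genes that did not pass. Alternatives were gene values from exon-level probesets, 2 other scalings, trend and robust priors, array weights, a filter on the dimmest 25% of clusters, the replicate block and leaving out each sample. The within-array comparisons were added after the values were seen.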

Additional observations from a re-analysis of the deposited data

How the results depend on the processing

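Under all alternatives run, each of the 10 genes kept the direction of its difference (130 of 130 values), and 124 of the 130 stayed on the same side of the threshold. The 6 exceptions concern Ccnd3, Cdk4 and Cdk6 and are given with these genes. The count of 5 higher members was 6 without KO-labelled replicate 1, where Ccnd3 joined, and 5 under every other alternative. With medians of exon-level probesets, Ccnd3 took the place of Cdk4 among these 5. The count of lower members was 1 in place of 0, namely Cdk6, with trend and robust priors and without the dimmest clusters, and it ranged from 0 to 1 when each sample was left out. The number of members with differential exon usage ranged from 1 to 5 with a sample left out and was 3 with the replicate block, where Ccnd2 missed the threshold (adjusted p = 0.0730). The cause of these changes was not tested. Over all clusters, 2144 were higher and 2096 lower with the replicate block, which changed no call among the 10 gene-level differences. RMA shrinks the changes of dim genes. Cdkn2b lies below the median of all clusters, as Cdkn2c did in WT, and the part of RMA in their differences was not tested.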
